A study of Mus musculus with 2 samples.

Results

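Chromatin at the nuclear genes of the mitochondrial respiratory chain was described from DNase-seq data on left cerebral cortex, taken from female mice of the F1 hybrid strain B6CASTF1/J at 4 days of age. The members were the protein-coding genes of the GENCODE annotation on mouse autosomes whose symbols begin with Nduf, Uqcr, Cox4, Cox5, Cox6, Cox7, Cox8 or Atp5, together with Sdha, Sdhb, Sdhc, Sdhd and Cyc1. The rule found 91 members among 20780 autosomal protein-coding genes, and 3 further matching symbols on the X chromosome (Cox7b, Ndufa1 and Ndufb11) were not members. There was 1 untreated group of 2 libraries (replicate 1 and replicate 2, from different animals by their labels), so no condition could be compared and no test was made. The tissue was taken whole, so each value is an average over neurons, glia and vascular cells, and fewer cells with an open promoter cannot be told apart from a promoter less open in every cell. DNase-seq marks bases that DNase I cuts in nuclei. A DNase I hypersensitive site (DHS) is a region cut more than its surroundings, and a footprint is a short stretch inside it that is cut less, as bound proteins can leave.

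The respiratory chain passes electrons from NADH and succinate to oxygen and stores the energy as a proton gradient that the ATP synthase uses to make ATP. Complex I takes electrons from NADH, complex II from succinate, complex III passes them to cytochrome c, complex IV reduces oxygen, and complex V is the ATP synthase. Complexes I, III, IV and V each hold some subunits encoded in the mitochondrial genome, whereas all subunits treated here are encoded in the nucleus. Nuclear regulators known to act at these promoters include NRF1, the ETS-family factor GABP (also called NRF-2), YY1, CREB, Sp1 and the oestrogen-related receptors with their coactivator PGC-1alpha. Several complex IV subunits exist as a common isoform and as isoforms restricted to heart and skeletal muscle, lung or testis. Neurons depend on oxidative phosphorylation for ion pumping and synaptic transmission.

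Promoter sequence was taken from a RefSeq table on GRCm38 (mm10) that gives 250 bases before and 50 after each gene start. It held 73 of the 91 members; the other 18 included Atp5a1, Atp5mpl, Cox4i1, Cox4i2, Cox6a2, Cox6c, Cox8c, Cyc1, Ndufa2, Ndufa4l2, Ndufaf6, Ndufb9, Ndufs1, Sdhc, Uqcrb, Uqcrc2 and Uqcrq. The windows below are printed 5′ to 3′ on the strand of the gene, with matches to any of 9 consensus sequences in capitals. The first pair of windows belongs to the highest-ranking members, by mean percentile of promoter signal, with a match to NRF1 (Atp5g2, a proteolipid of the ATP synthase c-ring, chr15:102670998-102671297, minus strand) and to ETS and YY1 (Ndufaf8, a complex I assembly factor, chr11:120098684-120098983, plus strand). In Atp5g2 the capitals mark an NRF1 site and, nearer the start, an Sp1 site. In Ndufaf8 they mark, in order, an NF-Y, an ETS and a YY1 site.
Atp5g2: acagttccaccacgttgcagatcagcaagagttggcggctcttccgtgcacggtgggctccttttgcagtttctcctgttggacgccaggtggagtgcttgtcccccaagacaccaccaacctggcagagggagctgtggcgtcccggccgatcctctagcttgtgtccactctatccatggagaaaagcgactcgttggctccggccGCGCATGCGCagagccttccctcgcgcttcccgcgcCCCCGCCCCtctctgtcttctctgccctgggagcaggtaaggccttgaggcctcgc
Ndufaf8: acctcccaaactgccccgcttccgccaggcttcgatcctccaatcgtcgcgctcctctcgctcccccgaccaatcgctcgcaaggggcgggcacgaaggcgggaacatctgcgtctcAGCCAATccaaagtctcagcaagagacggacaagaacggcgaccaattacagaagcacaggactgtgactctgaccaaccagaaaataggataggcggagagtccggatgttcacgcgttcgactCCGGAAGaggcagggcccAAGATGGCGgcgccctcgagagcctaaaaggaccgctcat

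The other 6 windows set a common complex IV isoform beside its tissue-restricted counterpart. They are Cox6b1 (chr7:30626065-30626364, minus strand) beside the testis isoform Cox6b2 (chr7:4753045-4753344, minus strand), Cox7a2 (chr9:79759804-79760103, minus strand) beside the heart and muscle isoform Cox7a1 (chr7:30183921-30184220, plus strand), and Cox8a (chr19:7217567-7217866, minus strand) beside the heart and muscle isoform Cox8b (chr7:140900397-140900696, minus strand). The capitals are 1 ETS site in Cox6b1 and 2 in Cox8a, 1 Sp1 and 2 NF-Y sites in Cox6b2, and a match to the TATA box in Cox8b. The Cox8b match begins at base 4 from the start, after it and not upstream. Cox7a1 and Cox7a2 had no match to any of the 9. None of these restricted isoforms had a match to NRF1, ETS or YY1.
Cox6b1: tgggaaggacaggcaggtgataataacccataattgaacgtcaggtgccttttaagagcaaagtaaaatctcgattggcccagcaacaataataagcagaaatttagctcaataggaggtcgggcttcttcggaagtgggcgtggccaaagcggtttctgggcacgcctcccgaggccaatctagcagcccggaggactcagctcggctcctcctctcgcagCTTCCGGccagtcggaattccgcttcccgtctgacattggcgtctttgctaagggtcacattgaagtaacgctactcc
Cox6b2: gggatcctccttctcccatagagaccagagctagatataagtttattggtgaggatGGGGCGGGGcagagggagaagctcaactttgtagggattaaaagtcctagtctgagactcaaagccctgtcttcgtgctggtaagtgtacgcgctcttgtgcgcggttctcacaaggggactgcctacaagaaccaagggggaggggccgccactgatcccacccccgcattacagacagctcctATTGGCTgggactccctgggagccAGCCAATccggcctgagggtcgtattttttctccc
Cox7a2: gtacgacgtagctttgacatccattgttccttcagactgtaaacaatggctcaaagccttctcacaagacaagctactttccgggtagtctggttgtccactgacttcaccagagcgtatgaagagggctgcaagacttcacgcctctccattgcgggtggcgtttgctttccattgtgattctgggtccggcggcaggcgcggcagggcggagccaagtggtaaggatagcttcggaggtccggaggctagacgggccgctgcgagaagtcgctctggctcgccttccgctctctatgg
Cox7a1: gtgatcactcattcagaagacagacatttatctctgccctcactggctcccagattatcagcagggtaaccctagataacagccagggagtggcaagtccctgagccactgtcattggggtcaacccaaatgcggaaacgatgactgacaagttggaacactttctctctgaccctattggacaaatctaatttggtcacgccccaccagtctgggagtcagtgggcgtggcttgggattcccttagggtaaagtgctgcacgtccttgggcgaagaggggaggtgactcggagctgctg
Cox8a: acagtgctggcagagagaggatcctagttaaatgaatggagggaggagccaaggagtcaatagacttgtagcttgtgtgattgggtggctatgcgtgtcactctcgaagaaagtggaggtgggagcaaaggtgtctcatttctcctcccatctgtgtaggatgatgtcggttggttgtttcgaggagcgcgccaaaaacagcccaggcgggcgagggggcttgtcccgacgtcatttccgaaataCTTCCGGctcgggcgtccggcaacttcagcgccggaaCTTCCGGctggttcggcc
Cox8b: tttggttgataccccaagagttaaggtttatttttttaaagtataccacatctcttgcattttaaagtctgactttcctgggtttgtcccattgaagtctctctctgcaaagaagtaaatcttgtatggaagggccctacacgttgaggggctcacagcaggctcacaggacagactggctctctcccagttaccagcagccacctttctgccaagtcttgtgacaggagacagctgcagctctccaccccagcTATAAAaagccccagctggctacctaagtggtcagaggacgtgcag

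The libraries held 59355 DHS calls (replicate 1) and 46566 (replicate 2) in the stricter of the authors' peak lists, with 153911 and 224652 footprint calls. The deposited signal value of a call is a tag density whose scaling is not stated, with a median over all calls of 0.556 and 1.45, so values of the libraries stand side by side and are not compared in level. The depth in reads is not given in the sources used here. Of 10 marker genes of cortical neurons, 4 had a promoter call in replicate 1 and 9 in replicate 2, with 4 called in both. Over all autosomal protein-coding genes the shares were 58.3%, 61.3% and 56.8%. None of 6 testis markers had a promoter call in either library. In both libraries 3 of 10 muscle markers had one (Actn2, Myh7 and Mylpf). So did 2 of 5 markers of vascular smooth muscle and pericytes (Kcnj8 and Notch3). The neuron (40%), muscle (30%) and vascular (40%) shares lay below that of all genes, so these lists do not identify the tissue.

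Almost every respiratory chain gene had an open promoter in both animals, and the genes that did not were nearly all tissue-restricted complex IV isoforms. A promoter call lay within 1 kb of a transcription start site and is called shared where calls of both libraries overlapped by at least 1 bp. Of the 91 members, 83 (91.2%, exact 95% interval 83.4 to 96.1, counting error only) had a shared promoter call, against 56.8% of all autosomal protein-coding genes. In replicate 1 the count was 84 of 91 (92.3%), against 58.3% of all genes, and in replicate 2 it was also 84 of 91, against 61.3%. A shared call was found at 7 of 7 core and 26 of 27 accessory subunits of complex I, 8 of 8 complex I assembly factors, 4 of 4 subunits of complex II, 9 of 9 of complex III, 11 of 11 common subunits of complex IV and 17 of 17 genes of complex V. Of the 8 restricted complex IV isoforms, only Cox6b2 had one.

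The single gene outside the restricted isoforms without a shared call was Ndufc2, an accessory subunit in the membrane arm of complex I. It had a call in each library, at chr7:97400161-97400360 in replicate 1 (signal 0.976) and at chr7:97399941-97400160 in replicate 2 (signal 2.46). These calls abut without a common base, and in the lenient list Ndufc2 did have a shared call. The 7 restricted isoforms without a call in either stricter list were Cox4i2, Cox6a2, Cox7a1, Cox7b2, Cox8b, Cox8c and Ndufa4l2.

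**Figure D1:**
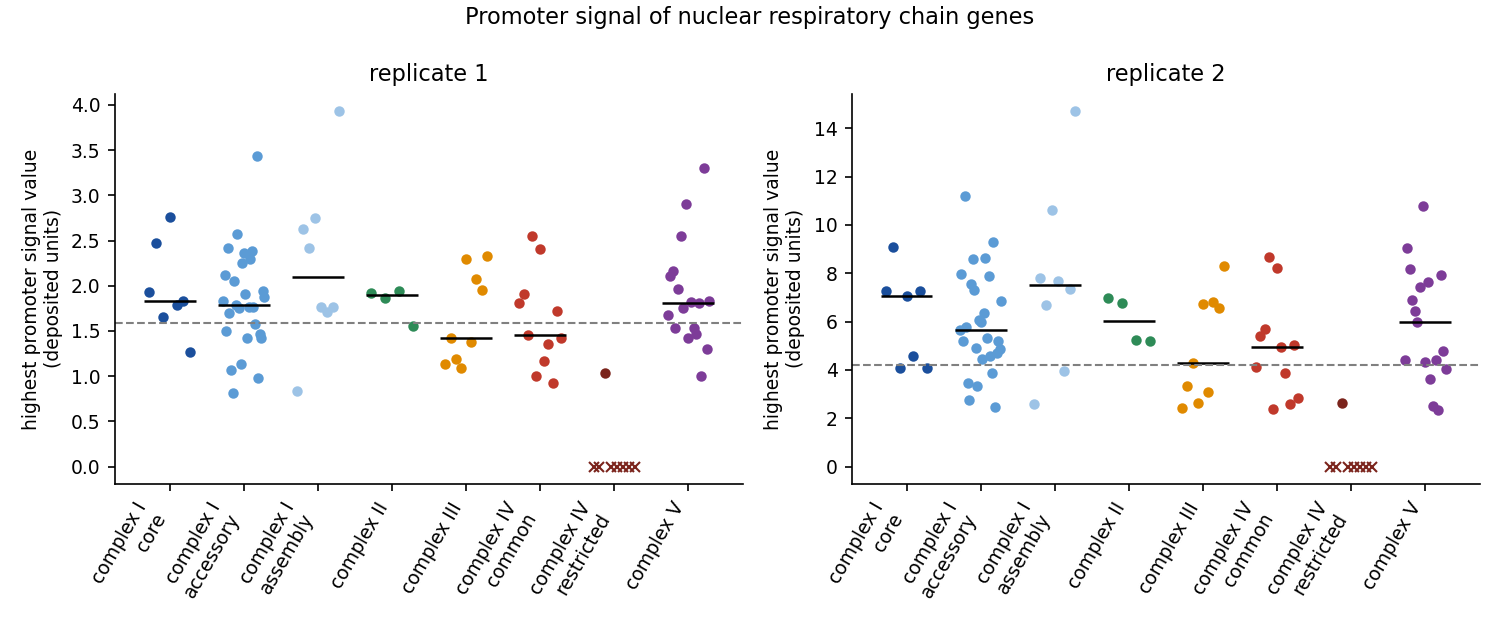
Highest deposited signal value of a promoter call (vertical axis, deposited units, a separate linear scale for each library) of the 91 members, by complex. Each point is a gene, crosses at 0 are genes without a promoter call, black lines are medians of the called genes and the dashed line is the median of all called autosomal protein-coding genes (1.59 in replicate 1 and 4.19 in replicate 2); 7 of the 8 restricted complex IV isoforms are crosses in both libraries.

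Among the common complex IV isoforms, all 6 partners had a promoter call in each animal. Cox4i1, the subunit at which ATP regulates complex IV, had a signal of 1.81 (replicate 1) and 4.1 (replicate 2). Its hypoxia- and lung-associated counterpart Cox4i2 had no call in the stricter or the lenient list of either library. Cox6a1 had 2.55 and 8.69, the highest of these 6 in both libraries, and its heart and muscle counterpart Cox6a2 had only a lenient call in replicate 2, with 0.394. Cox7a2 had 1.17 and 4.96, whereas Cox7a1 had lenient calls alone, with 0.537 and 1.03. Cox8a had 1.72 and 5.03, and neither Cox8b nor the testis isoform Cox8c had a call in any list. Ndufa4, now counted as a complex IV subunit, had 1.42 and 2.84, and its hypoxia-induced paralogue Ndufa4l2 had no promoter call. Cox7b2, the testis counterpart of the X-linked Cox7b, had none either.

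Cox6b departed from the other pairs. Cox6b1, the common isoform of a subunit on the intermembrane side of complex IV, had signal values of 1.00 and 2.40. The testis isoform Cox6b2 had 1.03 and 2.62 at chr7:4752961-4753200, a DHS that covered its start site, with 2 footprints in replicate 1 and 5 in replicate 2. The values of both genes were thus close in each library, and both ranked low among called promoters, with a mean percentile over the libraries of 24.9 for Cox6b2 and 23.02 for Cox6b1. No other protein-coding gene had a start within 1 kb of that DHS. The 6 testis markers had no promoter call; whether cells other than neurons carry the Cox6b2 DHS was not tested.

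The authors' false discovery rates of the cut rate, listed per base where under 0.05, gave a measure below the threshold of a call. Cox4i2, Cox7b2, Cox8b and Ndufa4l2 had no listed base within 1 kb of a start in either library. Cox8c had 5 such bases in replicate 1 and 0 in replicate 2, and Cox6a2 had 0 and 185. Cox7a1 had 109 and 239 bases, none of them under 0.001. Cox6b2 had 472 and 1304, of which 160 and 677 were under 0.001. The 6 common partners had between 429 and 1074 bases in replicate 1 and between 450 and 1206 in replicate 2. Of all genes without a call in either library, 90.2% had no listed base in replicate 1 and 87.3% in replicate 2, so the 4 isoforms without a listed base in either library resembled most closed promoters by this measure.

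**Figure D2:**
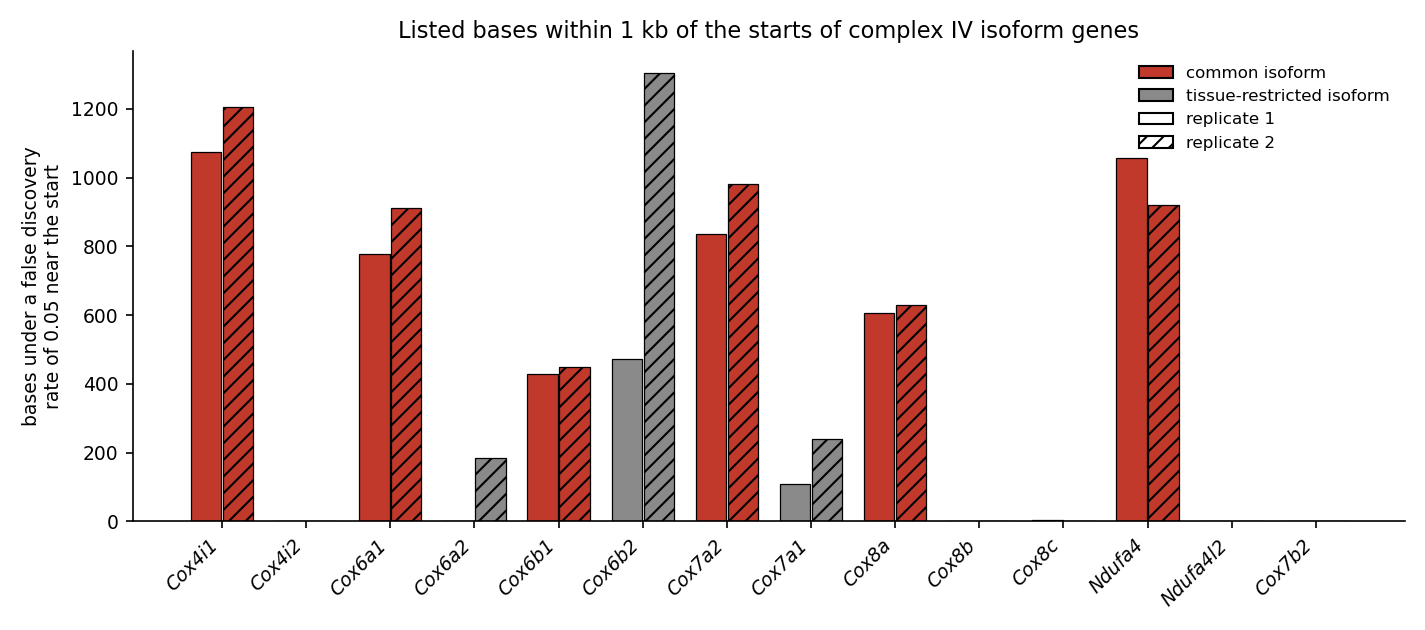
Number of bases with a deposited false discovery rate of the cut rate under 0.05 within 1 kb of a start (vertical axis, bases) for the common (red) and tissue-restricted (grey) complex IV isoforms, with replicate 1 plain and replicate 2 hatched. The 6 common isoforms hold 429 or more bases in every bar, and among the restricted isoforms only Cox6b2 reaches that level.

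Levels within the open promoters were intermediate rather than extreme. Each gene's highest promoter signal was ranked among all called genes of the same library. The median percentile of the 84 called members was 60.2 in replicate 1 and 64.2 in replicate 2, a mean of 62.2 ± 2.79 (SD, n = 2). Of the 83 members with a shared call, 50 (60.2%) lay above the 50th percentile in both libraries, against 46.3% of all genes with a shared call, and 18 (21.7%) lay below it in both, against 41.2%. Only 3 (3.61%), Ndufaf4, Ndufaf8 and Atp5g2, lay in the top 10% in both, against 6.49% of all genes. Across the 84 members Spearman's rho between libraries was 0.813, and across all called genes 0.906; genes of a library share its preparation and depth, so this is a description.

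In complex I, the 7 core subunits, which carry the flavin and the iron-sulphur clusters, had signal values from 1.27 to 2.76 in replicate 1 and from 4.09 to 9.1 in replicate 2. Their median mean percentile over both libraries was 70.6, and that of the 27 accessory subunits was 62.6. By mean percentile Ndufc1, a small membrane-arm subunit, was the highest member of the complex, with 3.43 and 9.28. Ndufa13, also known as GRIM-19, followed with 2.42 and 11.2 and was above Ndufc1 in replicate 2. The DHS of Ndufa13 was centred at -732 bp from its start (upstream) and had the starts of Tssk6 and Yjefn3 within 1 kb, so the value cannot be assigned to Ndufa13 alone. Ndufa5, in the arm that projects into the matrix, was lowest by mean percentile with 0.813 and 2.74, although Ndufc2, with 2.46, was below it in replicate 2. Ndufc1 stood at the percentiles 98.3 and 89.5 and Ndufa5 at 10.3 and 31.5.

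The 8 complex I assembly factors, which build the complex without remaining in it, had the highest median mean percentile of the classes, 75.2. Ndufaf8 had the highest signal of all members, 3.93 in replicate 1 and 14.7 in replicate 2, at the percentiles 99.4 and 99.3. Its DHS, chr11:120098681-120098940, covers a start of Ndufaf8 and a start of Tepsin, which is transcribed in the opposite direction from 197 bp upstream. Ndufaf4 had 2.75 and 10.6, and Ndufaf1 was lowest with 0.831 and 2.59. The assembly factors therefore span nearly the whole range of the members.

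Complex II was the most even of the complexes. Sdha, the flavoprotein that oxidises succinate, had 1.92 and 6.97, and Sdhb, the iron-sulphur subunit, had 1.87 and 6.76. The membrane anchors Sdhc and Sdhd had 1.94 and 5.25, and 1.55 and 5.18. All 4 lay within 1.55 to 1.94 in replicate 1 and within 5.18 to 6.97 in replicate 2, and their median mean percentile was 67.3. Sdhd had 5 footprints in replicate 2 and none in replicate 1, and Uqcr11 of complex III was the only other member with a shared call that lacked a footprint in a library.

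Complex III had the lowest median mean percentile apart from the restricted isoforms, 40.4, and its 9 members split into a higher and a lower set. Uqcrq had 2.33 and 8.31 and Uqcrc1, a core protein of the complex, 2.3 and 6.73. Cyc1, which encodes cytochrome c1 and hands electrons to cytochrome c, was lowest by mean percentile with 1.13 and 2.41, at the percentiles 25.3 and 27.2, although Uqcrb, with 1.09, was below it in replicate 1. Cyc1, Uqcr10, Uqcrb and Uqcrc2 lay below the 50th percentile in both libraries. Uqcr11 lay below it in replicate 1 alone (27.85 and 50.95), and its mean percentile of 39.4 places it in the lower set.

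The 11 common subunits of complex IV had a median mean percentile of 54.3. After Cox6a1, Cox6c was the next highest, with 2.41 and 8.23. Cox7c was lowest by mean percentile, with 0.92 and 2.57, although Cox6b1, with 2.40, was below it in replicate 2. Cox6b1, Cox7a2l, Cox7c and Ndufa4 lay below the 50th percentile in both libraries.

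In complex V the median mean percentile of the 17 members was 61.6. Atp5g2, 1 of 3 genes for the same mature c-ring protein, had 2.9 and 10.8, above Atp5g1 with 1.75 and 7.44 and Atp5g3 with 1.42 and 4.31, an order that held in each library. The promoter calls of Atp5g2 together held 11 and 7 footprints, 9 of those in replicate 1 overlapping a footprint of replicate 2, the most of any member. Atp5mpl, a small membrane subunit, had 3.3 and 7.94. Atp5l, subunit g of the membrane part, was lowest with 1.00 and 2.35.

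The open regions of these genes were narrower than those of open promoters in general and lay around the start. The shared DHS was taken as the outer extent of the overlapping calls of both libraries. Its median width was 340 bp, against 400 bp for all genes with a shared call. The median signed distance of its centre from the nearest start was -0.5 bp (quartiles -58 and 58), against -8.5 bp (-88.5 and 74.8). It covered a start, in the call of 1 library or of both, in 74 of 83 members (89.2%), against 82.2% of all genes with a shared call. The other 9 were Atp5f1, Atp5j, Atp5mpl, Cox7a2l, Ndufa11, Ndufa13, Ndufaf3, Ndufs4 and Uqcrh, and 5 of them (Atp5f1, Atp5j, Ndufa11, Ndufa13 and Uqcrh) had the start of another protein-coding gene within 1 kb of the DHS. In replicate 1, 22.9% of members had a call between -240 and -221 bp from the start, against 34.8% of all genes with a shared call.

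A footprint lay in the promoter calls of both libraries at 82 of 91 members (90.1%), against 55.6% of all genes, but among genes with a shared call the shares were 97.6% and 97.4%, so having any footprint hardly set the members apart from other open promoters. Footprints of the libraries overlapped at 76 members (83.5%), against 50.7% of all genes, and among genes with a shared call at 91.6% and 89.2%. Per kb of called sequence the members had 10.4 footprints in replicate 1 and 18.2 in replicate 2, against 8.61 and 13.7 over all genes with a shared call. Per gene they did not have more. The median count was 4 in both groups in replicate 1, and 5 against 6 in replicate 2. The median number of bases in footprints was 42 against 46 in replicate 1 and 75 against 84 in replicate 2. Footprints of the members were most frequent just before the start. Between -40 and -21 bp, 38 of 83 members (45.8%) had a footprint in replicate 1, against 31.2% of all genes with a shared call. Between -20 and -1 bp, 52 of 83 (62.7%) had one in replicate 2, against 49%. These are the bins where the members' own share was highest in each library. More members also had a call there, 78.3% against 72.1% in the replicate 1 bin and 91.6% against 75.4% in the replicate 2 bin.

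**Figure D3:**
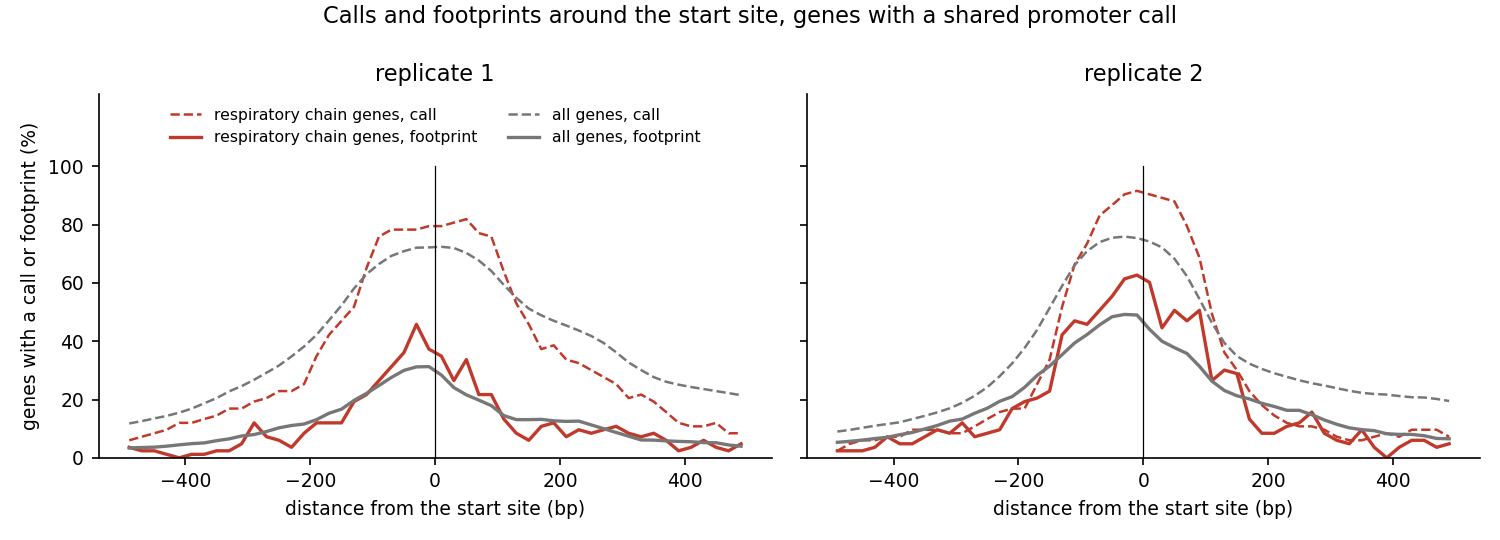
Share of genes with a shared promoter call (vertical axis, percent) that had a call (dashed) or a footprint (solid) in bins of 20 bp by distance from the start (horizontal axis, bp), for 83 respiratory chain genes (red) and 11808 genes in all (grey). In each library the red lines are higher than the grey ones at the start, and the red call line is lower than the grey one at -240 to -221 bp (15.7% against 28% in replicate 2).

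Many members shared their promoter with a neighbour. A protein-coding gene on the opposite strand started within 1 kb upstream of 25 of 91 members (27.5%), against 9.23% of all genes. All 25 had a shared call, which is 25 of 83, and among all genes with a shared call 15.2% had such a neighbour. In 23 of the 25 the distance was at most 200 bp, with a median of 87 bp. Ndufs1, the largest core subunit of complex I, starts 3 bp from Eef1b2, a translation elongation factor, and Ndufa7 starts 10 bp from the ribosomal protein gene Rps28. Partners with mitochondrial products included Mrpl36 at Ndufs6 (51 bp), a mitochondrial ribosomal protein, and Timm8b at Sdhd (98 bp), an import chaperone. Cox4i1 faces Emc8 at 101 bp. Atp5j, a coupling subunit of the ATP synthase, faces Gabpa, the DNA-binding subunit of GABP, at 686 bp, and both genes had the same highest values, 1.53 and 3.62. DNase-seq has no strand, so the values of such pairs cannot be divided between the genes.

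The 73 promoter windows were searched on both strands for 9 consensus sequences: NRF1 (GCGCANGCG), ETS (CCGGAAG), YY1 (AAGATGGCG), Sp1 (GGGGCGGGG), CRE (TGACGTCA), NF-Y (AGCCAAT), ERR for the oestrogen-related receptors (TNAAGGTCA), the TATA box (TATAAA) and the shared element of Ronin and ZNF143 (ACTACAANT). N stands for any base, overlapping matches of a consensus were merged into 1 site, and no site of 1 consensus overlapped a site of another in the members' windows. NRF1 was matched in 22 of 73 members (30.1%, exact 95% interval 19.9 to 42), against 10.1% of all 16041 genes with a window and 16.3% of those with a shared call. ETS was matched in 18 (24.7%, 15.3 to 36.1), against 13.5% and 20.5%. YY1 was matched in 8 (11.0%, 4.85 to 20.5), against 2.21% and 3.62%. The intervals of NRF1 and YY1 thus lay above the share of open promoters in general, and the interval of ETS included it.

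The NRF1 matches were spread over complexes I, II, III, IV and V, with several sites in Cox6a1, Ndufa8, Ndufb4, Sdha and Uqcrc1. The overlapping windows of Ndufa5 hold the same NRF1 site. In Sdha there were 3 NRF1 sites, beginning at bases -98, -55 and -10 from the start, and those at -55 and -10 lay in a footprint in both libraries. The YY1 matches were in Atp5j, Atp5j2, Ndufa9, Ndufaf8, Ndufc1, Ndufs4, Ndufs6 and Ndufs7. Of these 8 YY1 sites, 7 (87.5%) lay from the start onward, inside the 50 bases after it, against 59.5% of 353 YY1 sites at all genes with a shared call. At least 1 of NRF1, ETS and YY1 was matched in 39 members (53.4%), against 22.8% of all genes and 35.3% of those with a shared call, and 9 members (12.3%) had 2 or more, against 2.97% of all genes.

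**Figure D4:**
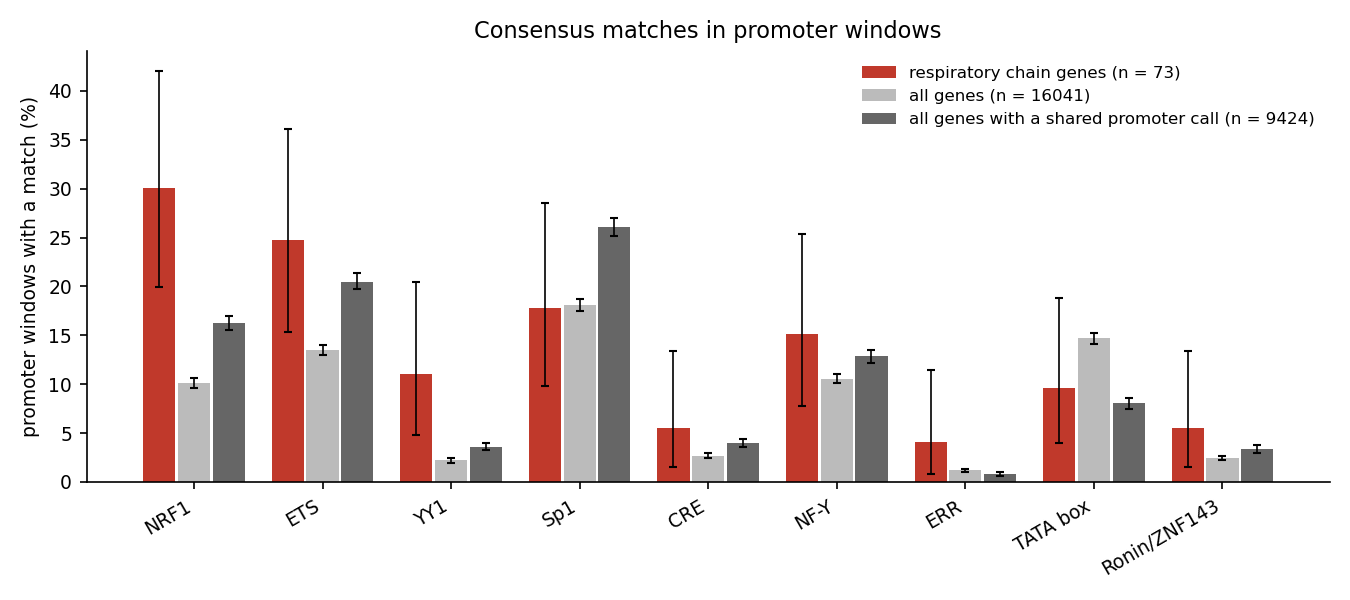
Share of RefSeq promoter windows (vertical axis, percent) with at least 1 exact match to each of 9 consensus sequences, for 73 respiratory chain genes (red), 16041 genes in all (light grey) and 9424 genes with a shared promoter call (dark grey). Error bars are exact 95% binomial intervals; the red bars of NRF1 (30.1%) and YY1 (11.0%) have intervals above both grey bars.

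Of the other consensus sequences, Sp1 was matched in 13 members (17.8%), against 18.1% of all genes and 26.1% of those with a shared call. CRE was matched in 4 (5.48%), against 2.69% and 3.97%, and NF-Y in 11 (15.1%), against 10.5% and 12.9%. The TATA box was matched in 7 (9.59%), against 14.7% and 8.05%, and the Ronin and ZNF143 element in 4 (5.48%), against 2.44% and 3.36%. ERR was matched in 3 members (4.11%, 0.856 to 11.5), Atp5g3, Ndufb4 and Sdhd, against 1.18% of all genes and 0.785% of those with a shared call. The ERR interval rests on 3 genes and lay above the share of open promoters but included that of all genes. A match is a string of letters and does not show that a factor was bound.

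Sites inside shared calls could be set beside footprints. Of 24 NRF1 sites of members, 12 (50%) lay in a footprint in replicate 1 and 22 (91.7%) in replicate 2, against 57.4% and 78.8% of 1549 sites at all genes with a shared call. Of 17 ETS sites, 4 (23.5%) and 8 (47.1%) did, against 27.8% and 47.2%. Of 5 YY1 sites, 0 and 1 (20%) did, against 37.7% and 52.5%. Thus NRF1 and ETS sites of members were footprinted about as often as those elsewhere, and the YY1 sites are too few to read. The NRF1 site of Atp5g2 printed above lay in a footprint in both libraries, as did its Sp1 site. In Ndufaf8 the NF-Y site lay in a footprint in both libraries, and the ETS and YY1 sites did so in replicate 2 alone. The YY1 site of Ndufaf8 lies just beyond the end of its shared DHS, so it is not among the 5 YY1 sites counted above.

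Base composition moved with these results. The median GC content of the members' windows was 58.5%, against 57% for all genes, but among genes with a shared call the order turned, with 59% in members and 61.7% in all. The median ratio of observed to expected CpG was 0.833 against 0.594, and among genes with a shared call 0.842 against 0.775. Of members with a ratio of 0.6 or more, 62 of 62 had a shared call, against 90.2% of all genes with such a ratio. Of those under 0.6, 7 of 11 (63.6%) had one, against 27.8%. The 4 restricted isoforms with a window were Cox8b at 0.115, Cox7a1 at 0.333, Cox6b2 at 0.432 and Cox7b2 at 0.564. Cox7b2, which had no promoter call, thus lay above Cox6b2, which had a shared call. The common isoforms with a window ran from 0.668 (Ndufa4) to 1.08 (Cox6a1). The part of CpG content in the isoform difference was not tested.

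Away from promoters the members did not stand out. Shared DHSs more than 1 kb from any start whose nearest start belonged to a member numbered 45, or 0.495 per gene against 0.537 over all genes. At least 1 such distal DHS lay nearest to 27 members (29.7%), against 30.8% of all genes. The most, 5, lay upstream of Ndufa4l2, whose promoter had no call. They began 1847 bp upstream with chr10:127512881-127513120 (signal 2.91 and 6.89, with 5 and 6 footprints) and reached 6407 bp upstream; the DHS at chr10:127509041-127509480 had 2.15 and 5.03. Cox8b had 2 distal DHSs, the nearer 2875 bp upstream with 1.35 and 1.95, and Cox7a1 had 1, at 2582 bp upstream with 0.99 and 1.51. Which gene any of these regions acts on was not tested.

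Of 16 genes for regulators of the chain, 13 (81.2%) had a shared promoter call, against 56.8% of all genes. Nrf1 had 2.68 and 7.52, Yy1 2.74 and 12.2, Creb1 3.48 and 13.9, Esrra 2.57 and 12.2, and Gabpb1, the partner of Gabpa, 2.55 and 5.03. Tfam, which packages mitochondrial DNA and starts its transcription, had 2.36 and 6.23. Ppargc1a, the gene of PGC-1alpha, had no promoter call in either library, whereas its relatives Ppargc1b (1.53 and 3.19) and Pprc1 (1.51 and 4.79) had shared calls. Esrrb and Esrrg had calls in replicate 2 alone, with 1.03 and 0.756. Of 32 assembly factors and cytochrome c outside the rule, 30 (93.8%) had a shared call, against the same 56.8%, and Coa3 and Sdhaf1 did not. Cycs, the gene of somatic cytochrome c, had 2.44 and 10.7.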

How the data were processed

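DNase-seq libraries of 2 animals formed 1 group. Per the labels and the file headers, coordinates are mm10 (GRCm38) and files were made for each library; which aligner and caller made them is not given in the sources used here. Deposited by the authors were a stricter and a lenient peak list, whose signal value is a tag density of unstated scaling. The deposited false discovery rates (q-values) of the cut rate are listed only under 0.05, and the deposited footprints carry the value 0.01 on every line, taken as a threshold p-value and not as a measurement.

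Calls and footprints were assigned with Python 3.11.15 to basic transcript starts of GENCODE M21 within 1 kb, with genes joined by symbol (Atp5o has 2 gene IDs). Of several calls the highest signal value was used. Code was tested on simulated data. The members' RefSeq windows, 78 in all since 5 members have several, equalled the genome at their coordinates. Named with values were all isoforms, in each complex the 2 highest and the lowest members by mean percentile, and Sdha to Sdhd and Cyc1; others named (Atp5g1, Atp5g3, Uqcr11, divergent partners, distal DHSs and examples of sites) were chosen after their values were seen. The members and lists were chosen with earlier results of these data known. Other windows, lists, overlap rules and matches, and each library alone, were tried. No test between groups was possible. Intervals are exact (Clopper-Pearson) and cover counting error only. Some genes are not reported here.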

Additional observations from a re-analysis of the deposited data

How the results depend on the processing

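Of 56 alternatives to 11 results, 46 stayed within the limits used here (within 1.5 times for a count, 1 SD between libraries for a percentile) and 10 moved. The count of 83 members with a shared promoter call ranged from 67 to 85, against 41.5% and 62.6% of all genes at those settings, and each library alone gave 84. The 67 came from calls that cover a start, an alternative chosen after seeing the data. This rule left 3 of 6 common isoforms called (Cox6a1, Cox7a2 and Ndufa4 were lost) and kept Cox6b2. Restricted isoforms with a shared call rose from 1 to 2 with a 2.5 kb window, which added Ndufa4l2, and to 2 with the lenient list, which added Cox7a1. The median percentile of 62.2 became 69.7 with the mean of a gene's calls in place of the highest; the cause was not tested. With 1 position of the consensus free to differ, NRF1 was matched in 48 members (35.7% of all genes), ETS in 62 (69.1%) and YY1 in 17 (10%). Distal shared DHSs nearest a member rose from 45 to 74 with the lenient list, and with calls of a single library to 70 (without replicate 1) and 78 (without replicate 2), since regions called in 1 library are then counted. With 2 libraries the spread between animals is poorly known, and the depth in reads is not given in the sources used here.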
